A study of Mus musculus with 3 samples.

Results

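Integrins are the receptors through which cells hold the extracellular matrix, and 34 genes for their subunits and for proteins of the adhesion sites they build were measured in mouse astrocytes made from embryonic stem cells. The genes were taken by symbol: 16 of 18 alpha subunits, 8 of 8 beta subunits and 10 of 12 named focal adhesion genes, out of 18194 genes on the array. The other members of the families, Itga11, Itgad, Fermt1 and Ptk2, had no probe set of their own in the annotation and were not analysed here. An integrin is a dimer of 1 alpha and 1 beta subunit, and the pairing sets which ligand is bound. The short cytoplasmic tail of the beta subunit is gripped by talin and kindlin, which switch the receptor on, and further proteins such as vinculin, paxillin and the complex of integrin-linked kinase with parvin tie it to actin. In the brain, astrocytes use integrins to hold the laminin of the basement membrane at blood vessels and to activate latent transforming growth factor beta.

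The samples were 3 preparations of 1 group, labelled wild type, and the labels name neither a strain nor a stem cell line. Stem cells passed through embryoid bodies (4 days) and ITSFn selection medium (5 to 7 days), and the resulting neural precursors were kept with FGF2 and a second factor written as EGF2 in the labels. At 18 passages after the embryoid bodies, growth factors were withdrawn and 5% FBS (fetal bovine serum) was given for 5 days. Total RNA was read on Affymetrix mouse arrays with 1 colour, so a level is the brightness of a probe set and one gene's level cannot be set against another's. Nothing says that the preparations were separate cultures, and the p-values measure the spread between these 3 arrays, which may be technical. Median intensities were 20.02, 23.3 and 19.4 on replicates 1, 2 and 3. Levels are given as log2 intensity, with the mean ± SD over the 3 arrays (n = 3).

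With no second group, the question for each gene was whether its signal rose above background. As background, 78 chemosensory receptor genes were taken, and their 95th percentile, called the limit, lay at 3.99, 4.10 and 4.07 on replicates 1, 2 and 3. Each gene's distance from the limit was tested with limma (one-sided, Benjamini-Hochberg over 18116 genes, adjusted p below 0.05), and 58.3% of all genes passed. Of the markers listed for astrocytes, the cell type in the labels, 10 of 10 passed, including Gfap at 12.63 ± 0.12. The marker lists were chosen with earlier results of these data known, so this count is no independent test of cell identity. Of other cell types, 1 of 10 microglia and leukocyte, 2 of 5 platelet, 1 of 6 endothelial, 2 of 5 neuronal and 1 of 4 oligodendrocyte markers passed by limma. No epithelial (0 of 6), mesenchymal (0 of 6) or muscle (0 of 5) marker did by limma, and at an unadjusted p below 0.05 the counts were also 0. In RNA from a whole culture, fewer cells of a type and less RNA per cell cannot be told apart.

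Of the 34 genes, 18 were above background (52.9%), which is near the share of all genes. By group, 7 of 16 alpha subunits (43.8%), 3 of 8 beta subunits (37.5%) and 8 of 10 focal adhesion genes (80.0%) passed. Of the 16 that did not pass, 11 lay below the limit on every array, and Itga9 alone lay above it on every array.

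**Figure D1:**
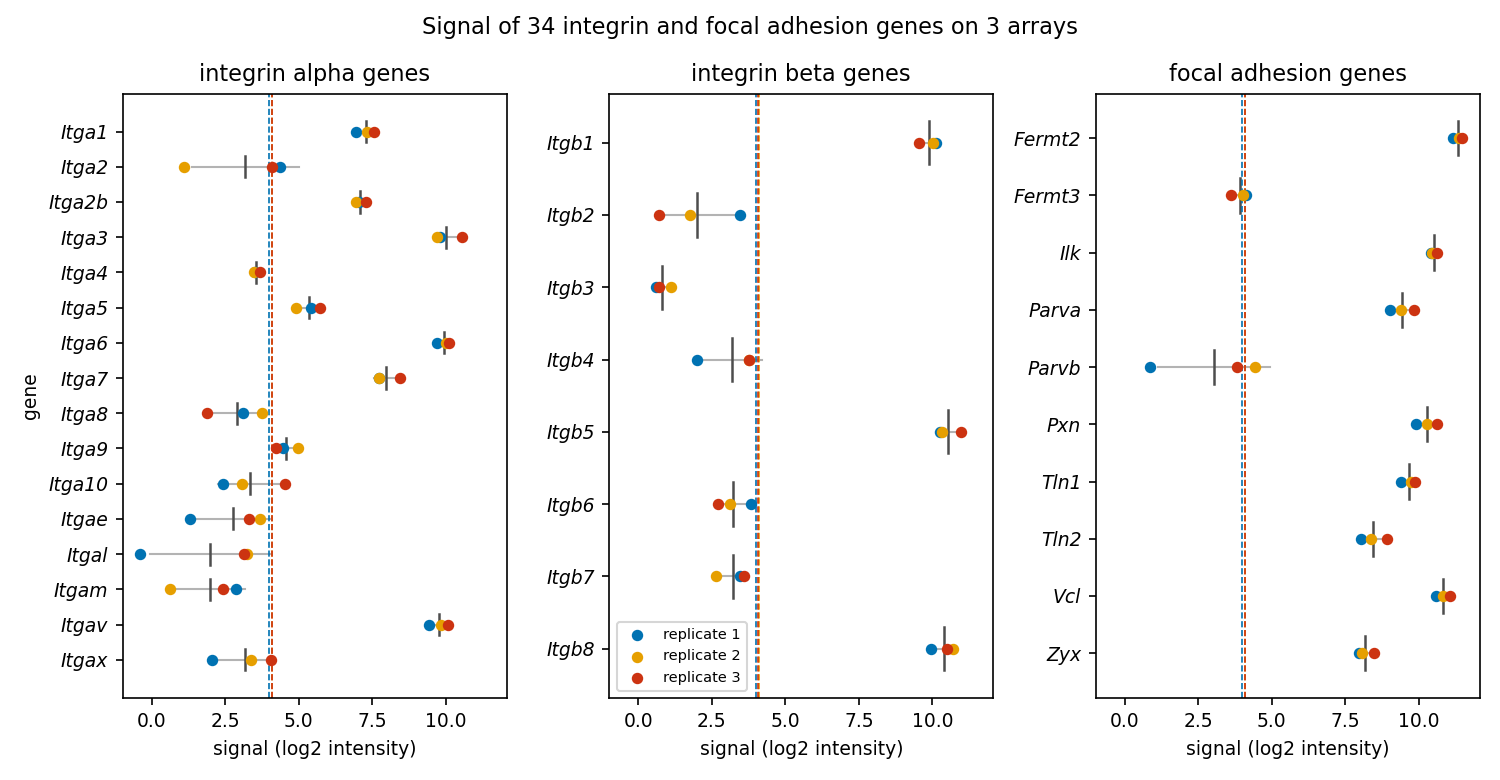
Log2 intensity of each of the 34 genes on replicates 1, 2 and 3 (points), with the mean (vertical tick) and SD (grey line, n = 3). Dashed lines are the background limits of the arrays. The 18 genes above background have all points to the right of the limits, and so has Itga9, which did not pass. The positions of different genes are not comparable levels.

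Among beta subunits, Itgb1, Itgb5 and Itgb8 were above background and the other 5 were not. Itgb1, the partner of most alpha subunits, was at 10.12, 10.01 and 9.53 on replicates 1, 2 and 3. Itgb5, which joins Itgav in a vitronectin receptor, was at 10.25, 10.32 and 10.98. Itgb8, which joins Itgav in the receptor that activates latent transforming growth factor beta, was at 9.95, 10.69 and 10.50. All 9 of these values were more than 5 log2 units above the limit of their array, and the mean distances were 5.84 for Itgb1, 6.46 for Itgb5 and 6.33 for Itgb8 (limma adjusted p of 5.1e-05, 4.9e-05 and 4.38e-05). Itgb1 was highest on replicate 1, Itgb5 on replicate 3 and Itgb8 on replicate 2, so these 3 did not move together between arrays. Itgb1 rested on 3 of its 6 probe sets, and with the median over all 6 it lay 0.27 log2 units above the limit and did not pass (limma adjusted p = 0.18). All 4 probe sets of Itgb5 and the only one of Itgb8 passed.

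The remaining beta subunits lay below the limit on all 3 arrays. Itgb2, the shared subunit of leukocyte integrins, was at 3.46, 1.76 and 0.72. Itgb3, of platelets and blood vessels, was at 0.60, 1.13 and 0.72, with both of its probe sets below the limit. Itgb4, which anchors epithelial hemidesmosomes to laminin, was at 2.01, 3.78 and 3.76. Neither Itgb6, an epithelial partner of Itgav, at 3.22 ± 0.57 nor Itgb7, of lymphocytes, at 3.23 ± 0.52 passed. Values under the limit have no order, so nothing is read from their differences.

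Itga3, Itga6 and Itga7, the alpha subunits grouped here by laminin binding, were all above background, beside 58.3% of all genes. Itga3 was at 9.81, 9.71 and 10.54, and all 3 of its probe sets passed. Itga6, a surface marker of neural stem cells as well, was at 9.71, 9.99 and 10.09 on its brighter probe set, and both of its probe sets passed. Itga7, best known from muscle, was at 7.74, 7.74 and 8.46 on its only probe set. No muscle marker passed (0 of 5 by limma), though 3 of the 5 had means above the limit. Their part in the Itga7 signal was not tested. On the brightest probe set, Itga3, Itga6 and Itga7 were each more than 3.5 log2 units above the limit on every array (mean distances of 5.97, 5.88 and 3.92, limma adjusted p of 6.72e-05, 3.85e-05 and 0.000152).

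Among collagen-binding subunits, Itga1 was above background at 6.93, 7.33 and 7.56 (limma adjusted p = 0.000143), with both probe sets passing. Itga2 and Itga10 were not. Itga2 was at 4.34, 1.09 and 4.10, just above the limit on replicates 1 and 3 and below it on replicate 2. Itga10 was at 2.41, 3.08 and 4.53, above the limit on replicate 3 only. Each of the pair rests on a single probe set, and both SDs, 1.81 and 1.09, were larger than that of any member that passed. Wide SDs were common among genes that did not pass, with a median of 1.02 for members and 0.83 for all genes.

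Of the subunits that read the RGD motif of fibronectin, vitronectin and related ligands, Itgav and Itga5 were above background and Itga8 was not. Itgav was at 9.41, 9.83 and 10.06 (limma adjusted p = 4.53e-05), but only 2 of its 5 probe sets passed. Itga5, the alpha subunit of the classical fibronectin receptor, was at 5.42, 4.91 and 5.73, which is 1.30 ± 0.22 (SE from limma) log2 units above the limit (limma adjusted p = 0.00562). Itga5 rested on 1 of 4 probe sets, of a kind that can bind several transcripts. The other 3 had means from 2.26 to 2.57, below the limit, and without probe sets of that kind Itga5 was at -1.48 log2 units from it. Itga8 was at 3.10, 3.74 and 1.86.

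Itga2b, the alpha subunit of the platelet fibrinogen receptor, passed at 7.03, 6.96 and 7.27 on its only probe set (3.04 log2 units above the limit, limma adjusted p = 0.000102). The 3 arrays differed little (SD 0.16), and none came near the limit. Its sole known partner, Itgb3, was below the limit on every array, as given above. Among platelet markers Pf4, Gp9 and Ppbp did not pass, at 3.95, 1.69 and 1.57 on average, and Gp1bb and Gp5 did, at 5.76 and 4.59 (limma adjusted p of 0.0025 and 0.0286). The summed signal of the 5 platelet markers ran from 6.33 to 6.96 on the log2 scale over the arrays. It adds genes whose levels are not comparable, so it does not measure an amount of platelet RNA. The part of platelet cells in the Itga2b signal was not tested.

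The alpha subunits of leukocytes and lymphocytes were not above background. Itgal and Itgam, which pair with Itgb2 on leukocytes, were at -0.39, 3.22 and 3.12 and at 2.88, 0.63 and 2.43. Itgax, a marker of dendritic cells and macrophages, was at 2.04, 3.39 and 4.07, and Itgae, of lymphocytes within epithelia, at 1.31, 3.67 and 3.30. All of these values lay below the limit of their array, Itgax on replicate 3 by the least. Itga4, of lymphocytes and neural crest, was at 3.50, 3.46 and 3.67, and none of its 5 probe sets passed. The leukocyte marker that passed was Csf1r at 5.34 on average (limma adjusted p = 0.00177), and Ptprc and Aif1 were at 1.56 and 1.79.

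Itga9, a receptor subunit for tenascin C, stood at the threshold. It was at 4.47, 4.97 and 4.23, above the limit on each array by 0.51 log2 units on average, and did not pass (limma adjusted p = 0.0582). Without replicate 3 it passed by 0.68 log2 units (limma adjusted p = 0.0443). Only 1 of its 3 probe sets had a mean above the limit.

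Read as pairs, the subunit genes give the receptors that the RNA would allow. Mouse and human integrins form 24 known dimers, and both genes were measured for 22 of them. Both passed for 8: Itgb1 with Itga1, Itga3, Itga5, Itga6, Itga7 and Itgav, and Itgav with Itgb5 and Itgb8. These are 36.4% of the measured pairs, near the 34.04% of all pairs of tested genes in which both passed, so the count is not a result about integrins, and pairs that share a gene are not independent. By ligand, the counts were 1 of 3 measured collagen receptors, 3 of 4 laminin receptors, 4 of 8 RGD receptors, 0 of 3 receptors with Itga4 or Itga9 and 0 of 4 measured leukocyte receptors. A missing partner was a beta subunit in 4 pairs and an alpha subunit in 5, and in 5 more neither gene passed. RNA does not show that a dimer reached the cell surface. All 8 pairs hold Itgb1 or Itgav, so the count falls with those genes. When each gene took the median of its probe sets, it was 0, because neither Itgb1 nor Itgav then passed.

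**Figure D2:**
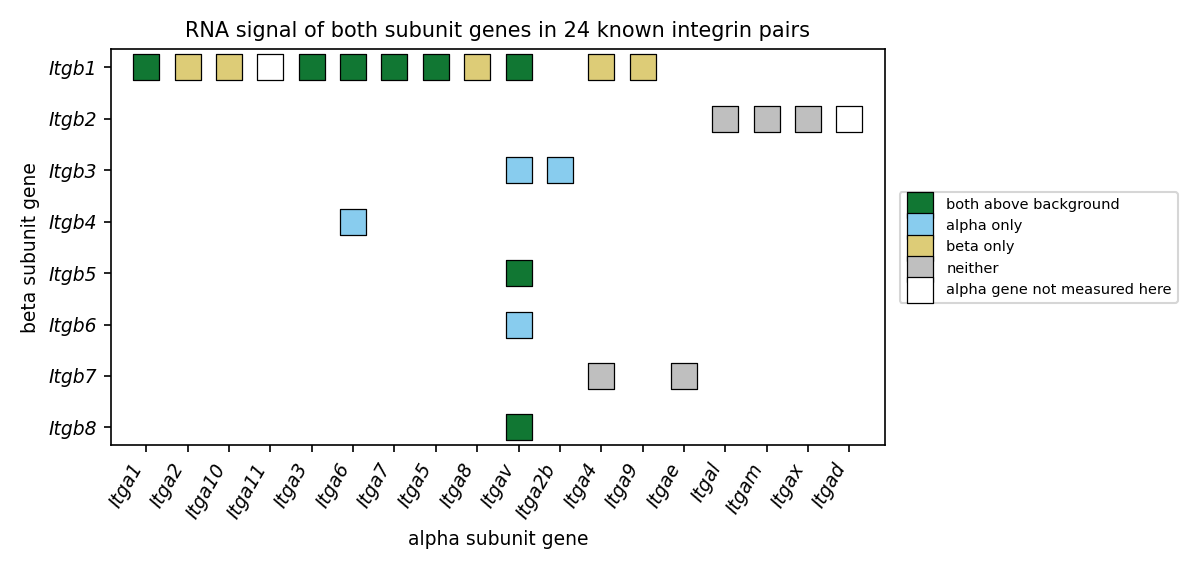
The 24 known integrin pairs, with alpha genes on the x axis and beta genes on the y axis. Green squares mark the 8 pairs in which both genes were above background, blue the 4 with the alpha gene alone, yellow the 5 with the beta gene alone, grey the 5 with neither, and white the 2 pairs whose alpha gene was not measured here.

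Inside the cell, of the genes for proteins that switch integrins on, Tln1, Tln2 and Fermt2 were above background and Fermt3 was not. Tln1, Tln2 and Fermt2 each passed on 2 of 3 probe sets. Tln1, the ubiquitous talin, was at 9.41, 9.73 and 9.85, and Tln2, the talin of muscle and brain, at 8.04, 8.38 and 8.92. Fermt2, which encodes the widely expressed kindlin-2, was at 11.15, 11.36 and 11.45. Fermt3, the kindlin of blood cells, was at 4.13, 4.03 and 3.63, above the limit on replicate 1 only, and none of its 4 probe sets passed. The limma adjusted p was 3.93e-05 for Tln1, 0.000117 for Tln2 and 3.85e-05 for Fermt2. Both talins thus passed, and of the kindlins the general one passed and the blood cell one did not.

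The linkers and scaffolds passed with 1 exception. Vcl, which encodes vinculin, the clamp between talin and actin, was at 10.58, 10.83 and 11.04. Ilk, the pseudokinase at the centre of the complex with parvin, was at 10.41, 10.46 and 10.63, and had the smallest SD of the 18 genes that passed, 0.12. Pxn, the scaffold paxillin, was at 9.92, 10.28 and 10.62. On the brightest probe set, Vcl, Ilk and Pxn were each more than 5 log2 units above the limit on every array. All probe sets of Vcl and Pxn passed, but the dimmest lay nearer the limit. It was at 7.20, 7.08 and 5.74 for Vcl and at 5.96, 6.61 and 4.91 for Pxn. Zyx, which encodes zyxin, a sensor of tension on actin, was at 7.98, 8.07 and 8.48, on 1 of 2 probe sets. Parva, alpha-parvin, was at 9.02, 9.41 and 9.82, with both probe sets passing, while Parvb, beta-parvin, was at 0.86, 4.42 and 3.83 and passed on neither. Parvb was above the limit on replicate 2 only. Its SD was 1.91, and wide SDs were common among genes that did not pass.

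The kindlin genes and Itga2b are shown with their upstream sequence because Fermt2 and Fermt3 are relatives on opposite sides of the limit and Itga2b passed without its partner. They were picked after their values were seen. The lines give the 250 bases before the RefSeq start site (GRCm38.p6, minus strand in each case), 5′ to 3′, with each CpG dinucleotide in capitals, at chr14:45530066-45530315 for Fermt2, chr19:7019470-7019719 for Fermt3 and chr11:102469884-102470133 for Itga2b.
Fermt2: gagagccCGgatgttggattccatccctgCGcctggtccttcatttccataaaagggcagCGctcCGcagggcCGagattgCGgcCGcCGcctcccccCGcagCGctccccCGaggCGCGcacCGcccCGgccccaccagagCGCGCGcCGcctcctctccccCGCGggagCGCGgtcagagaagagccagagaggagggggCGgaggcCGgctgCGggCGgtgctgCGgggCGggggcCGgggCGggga
Fermt3: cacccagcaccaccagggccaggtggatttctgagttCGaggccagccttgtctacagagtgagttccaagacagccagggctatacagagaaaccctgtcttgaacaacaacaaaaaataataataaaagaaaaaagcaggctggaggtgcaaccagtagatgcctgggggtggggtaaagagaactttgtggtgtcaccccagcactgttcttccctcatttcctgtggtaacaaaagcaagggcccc
Itga2b: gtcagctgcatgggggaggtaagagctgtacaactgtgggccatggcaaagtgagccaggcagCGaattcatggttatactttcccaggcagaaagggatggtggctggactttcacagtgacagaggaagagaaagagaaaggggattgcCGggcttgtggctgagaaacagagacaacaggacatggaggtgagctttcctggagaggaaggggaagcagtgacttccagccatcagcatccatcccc
The Fermt2 window held 31 CpG, a number reached by 5.19% of 32851 RefSeq windows, and was 76.0% G and C. The Fermt3 window held 1 CpG, reached by 92.1% of windows, at 50.0% G and C. The Itga2b window held 2, reached by 81.2%, at 54.0%. No link between CpG number and signal was tested. The letters GGGCGG, which themselves hold a CpG, were found on either strand in the Fermt2 window and in neither of the others, and 32.7% of all windows held them. A window was available for 24 of the 34 genes (70.6%), and no reading over the whole family is given. Windows of genes that passed held from 2 (Itga2b) to 32 CpG (Ilk). Those of genes that did not pass held from 1 (Fermt3) to 18 (Itga8), so the ranges overlapped.

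Around the members, the wider adhesion machinery was measured through 4 further lists. All 17 measured actin linkers were above background, among them Actn1 and Actn4 (alpha-actinins) at 11.20 ± 0.21 and 10.82 ± 0.28, Flna (filamin A) at 10.82 ± 0.29, and Vasp and Enah, which promote actin filament growth, at 8.12 ± 0.20 and 11.83 ± 0.26. Of 22 adaptors and kinases, 18 passed. Lims1 and Lims2, the PINCH partners of integrin-linked kinase, were at 8.83 and 5.64, and Rsu1, a PINCH-binding protein, at 10.98. The 4 that did not pass were Tgfb1i1 and Lpxn, relatives of paxillin, at 1.14 and 3.37, the kinase gene Ptk2b at 2.02 and Apbb1ip, which links Rap1 to talin in blood cells, at 2.90. Paxillin itself was thus above background and both measured relatives were not.

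At the membrane, 8 of 11 integrin-associated genes passed, including the tetraspanins Cd9, Cd81, Cd82 and Cd151 at 11.37, 12.78, 5.28 and 10.91 and Cd47, a thrombospondin receptor, at 9.19. Cd53, the leukocyte tetraspanin, at 0.07, Plaur, the urokinase receptor, at 4.30 and Cav1, of caveolae, at 4.21 did not. Of 27 ligands, 16 passed (59.3%), which is near the share of all genes. Fn1 (fibronectin), Tnc (tenascin C) and Thbs1 (thrombospondin) were at 11.23, 11.31 and 8.24, Vtn (vitronectin) passed narrowly at 4.64 (limma adjusted p = 0.0108), and Lama1, a laminin chain, was at -0.79 and did not pass. Of the other laminin chains listed, Lama5, Lamb1 and Lamc1 passed at 8.35, 6.22 and 9.76. Lama2 and Lama4 did not, at 3.12 and 2.28. The shares passing were 81.8% of adaptors and kinases, 100% of actin linkers and 72.7% of associated membrane genes, beside 58.3% of all genes. No test compares these lists with other genes.

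**Figure D3:**
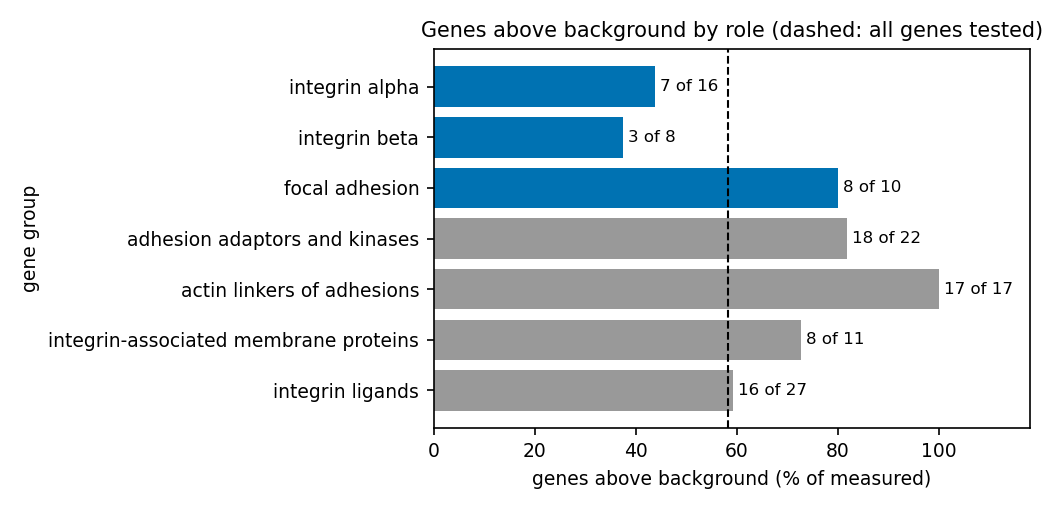
Share of measured genes above background in each group (bars, % of measured, with the counts beside them). Blue bars are the integrin and focal adhesion genes and grey bars the other adhesion lists. The dashed line is the share of all genes tested, 58.3%. Alpha and beta subunits lie below it and focal adhesion genes, adaptors, actin linkers and associated membrane genes above it.

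Between arrays, the 18 genes above background had a median SD of 0.33 log2 units, beside 0.24 over all 10570 genes above background. The widest was Itga3 (0.46) and the narrowest Ilk (0.12). On the deposited scale 16 of the 18, all but Itgb1 and Itgb8, were highest on replicate 3 (64.3% of all genes above background were), and the median deviation of all genes above background was 0.16 there and -0.18 on replicate 1. With that median deviation taken out of each array, 10 of the 18 (55.6%) were highest on replicate 3, beside 39.9% of all genes above background. With quantile normalization 13 of 18 were, and the share of all genes on that scale was not computed. Itgb1 was lowest on replicate 3 on each of these scales. Replicate 3 minus the mean of the others was -0.53 log2 units as deposited and -0.69 after quantile normalization, and the other probe sets of Itgb1 that passed were at -0.36 and -0.62 as deposited.

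In 8 of 12 genes, probe sets of the same gene differed in direction on replicate 3. Of 79 probe sets for the 34 genes, 35 were above background, beside 52.2% of all probe sets tested, and 12 genes had at least 2 that passed. In 8 of the 12 the brightest probe set was higher on replicate 3 than on the mean of replicates 1 and 2 while the dimmest passing one was lower, in 3 both were higher, in 1 both were lower, and in 0 the order was the other way. Over 4734 genes the shares were 39.4% for brightest up and dimmest down and 11.6% for the reverse. For Itga1 the brightest probe set was 0.43 log2 units higher and the other fell by 1.79, for Vcl the values were 0.34 and -1.40, and for Itgav they were 0.45 and -1.47. Itgb5 went one way on all 4 probe sets, by 0.66 to 0.89. After quantile normalization the count was again 8 of 12, with shares of 33.7% and 16.5% over all genes.

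Of the array's 4 own RNA controls, 3 had a larger 3′ to 5′ difference on the same replicate. The difference between the 3′ and 5′ probe sets of Gapdh was -0.38, -0.38 and 0.31 log2 units on replicates 1, 2 and 3, and that of beta-actin was 0.16, 0.23 and 0.98. For pyruvate carboxylase it was 2.36 and 2.39 on replicates 1 and 2, and on replicate 3 the 5′ probe set was below the limit at 3.77 with the 3′ one at 8.85. Replicate 3 thus had the weakest 5′ signal relative to 3′ signal in each of these 3 controls. The control for the transferrin receptor did not show this: its 5′ probe set was below the limit on every array, at 3.62, 3.47 and 2.88, and its 3′ one fell below it on replicate 3 too, at 5.44, 5.34 and 3.08. The part of RNA quality in the split between probe sets was not tested. Without replicate 3, 19 of the 34 genes were above background in place of 18, the addition being Itga9.

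**Figure D4:**
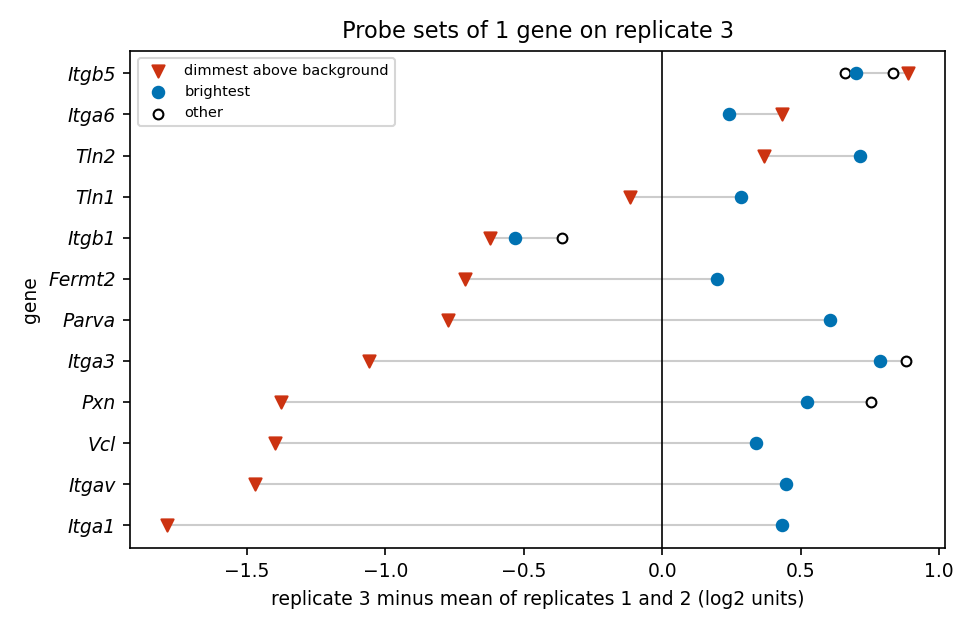
Replicate 3 minus the mean of replicates 1 and 2 (x axis, log2 units) for every probe set above background of the 12 genes with at least 2 such probe sets (y axis). Blue points are the brightest probe set of a gene, red triangles the dimmest and open circles any between. In 8 genes the blue point lies right of 0 and the red triangle left of it.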

How the data were processed

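Expression was measured on 3 arrays of 1 group. Linear intensities, 1 for each probe set on each array, were deposited by the authors, made with GCOS 1.4 per the submitters' processing notes. The algorithm, any scaling and detection calls are not given in the labels, and array images were not used, so saturation was not examined. Of 45101 probe sets, 34958 had 1 gene in the platform annotation, 932 had several and 9211 were unnamed in it. Identifiers of 34754 matched the RefSeq gene table of GRCm38.p6, which changed 0 symbols. Log2 was taken without a pseudocount, and a gene took its probe set with the highest mean. Distance from the array limit was tested (limma 3.58.1, R 4.3.3) over all 18116 genes outside the receptor set, and separately over all probe sets. The procedure was also run on simulated data. The null values there were drawn from the receptor genes that set the limit, so that run cannot show whether the limit is right. A gene that did not pass is not thereby absent. All members were named, with the first 5 measured genes of each further list and any group of at most 5 on the smaller side. The listed laminin chains were named too. The members, lists, markers and tests were chosen with earlier results of these data known. The number of arrays limits precision. Alternatives were the median of probe sets, no _s_at, _x_at or _a_at probe sets, limits at the 90th and 99th percentile or from olfactory and vomeronasal genes, quantile normalization, log2(signal + 16), a filter on dim genes, eBayes with a trend and robust fit, and leaving out each replicate. The planned look at protein sequences was not made.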

Additional observations from a re-analysis of the deposited data

How the results depend on the processing

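Of 18 members above background, 15 passed under every one of the 12 alternatives that measured them. The exceptions were Itga5, Itgav and Itgb1. When each gene took the median of its probe sets, Itga5 was at -1.33, Itgav at -0.10, Itga9 at -2.67 and Itgb1 at 0.27 log2 units from the limit (limma adjusted p = 0.18 for Itgb1), the members above background were 15, and the pairs with both genes above background were 0. With _s_at, _x_at and _a_at probe sets left out, Itga5 was at -1.48, and Ilk, Itga7 and Itgb4 were not measured. Itga9 passed under 5 alternatives, at 0.29 to 0.76 log2 units from the limit (limma adjusted p from 0.0156 to 0.0498). Of members that passed under no alternative, Fermt3 moved to 0.13 with the limit at the 90th percentile. Leaving out 1 replicate, Parvb ranged from -1.69 to 0.0399 (without replicate 1), Itga2 from -1.49 to 0.193 (without replicate 2) and Fermt3 from -0.25 to 0.0397 (without replicate 3), and none passed. Leaving out each replicate gave 18 to 19 members, 7 to 8 alpha subunits, 8 to 9 pairs and 10237 to 10460 genes in all above background, with 3 beta subunits and 8 focal adhesion genes each time. No paired analysis was possible because the design holds 1 group. A gene near the limit can go unseen with 3 arrays.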

Other observations

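Some ligands were above background without the receptor subunit best known for them (values picked after they were seen, and no test compares them). Npnt, which encodes nephronectin, a ligand of the receptor with Itga8, was at 9.40, 9.58 and 9.94, and Itga8 did not pass. Vcam1, the ligand of the receptor with Itga4, was at 8.92, 9.01 and 8.97, and Itga4 did not pass. In contrast, Tgfb3, whose latent form is a ligand of the receptor of Itgav and Itgb8, was at 6.70, 6.83 and 7.15 beside both receptor genes above background, and Tgfb1 was at 1.34, 4.15 and 3.28, above the limit on replicate 2 only.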
